A study of Mus musculus with 6 samples.

Results

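The 55 genes described here act in G2 and mitosis. They build the kinetochore and the spindle, guard chromosome attachment, separate sister chromatids and split the cell. They were taken by symbol from a list of such genes and mapped to the Ensembl mouse gene IDs of the 6 count tables. All 55 were found among the 54109 genes listed, and all 55 were among the 15427 genes with enough reads to be tested. The samples were cultures of Msc80, a mouse Schwann cell line, with 3 libraries of control cells (genotype Sox10 wt) and 3 libraries of Sox10ko cells, in which CRISPR/Cas9 editing was used to stop Sox10 expression. Sox10 is a transcription factor that Schwann cells need for their identity and for myelination. Both groups grew in DMEM with 10% FCS and PenStrep, and were sequenced as stranded mRNA libraries. The labels call the 3 libraries of each group biological replicates and do not say how many edited clones the Sox10ko libraries came from, so the p-values measure the spread between these libraries and the effect of the edit and the history of a clone cannot be told apart.

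Transcription of most of these genes is periodic. They are held low in G0 and G1 by the DREAM complex, in which the MuvB core sits on a promoter element called the cell cycle genes homology region (CHR), and are switched on in G2 when MuvB exchanges its partners for B-Myb and FOXM1. NF-Y, which binds the CCAAT box, is a second activator of many of them. Their summed transcripts are widely read as a sign of how many cells in a culture are dividing, and in bulk RNA fewer cells in G2 or mitosis and less RNA per dividing cell cannot be told apart.

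The genes of mitosis were, as a set, moderately lower in the Sox10ko cells. Of the 55 genes, 33 fell, 2 rose (Anln and Spc25) and 20 were not called, by edgeR's quasi-likelihood test at an adjusted p under 0.05 over all 15427 genes. Against a background of 14.7% of all tested genes called lower and 17.3% called higher, 60% of the mitosis genes were called lower. The log2 fold change was negative for 53 of the 55, and all 20 uncalled genes were among them. The median log2 fold change was -0.51, a 1.42-fold lower level, while the median over all tested genes was 0.02. Among the 33 genes that fell, the change ran from 1.24-fold (Tpx2) to 2.11-fold (Kif15), and 18 reached 1.5-fold. The 1.5-fold count was made for these genes only, so it has no background over all tested genes. All 3 Sox10ko values lay under all 3 control values for 43 of the 55 genes, or 78.2%, against 23.8% of all tested genes. The count of genes that fell was 17 without control replicate 1 and 21 without control replicate 3. Calls were fewer over all tested genes too. In those fits 1606 of 16174 and 1346 of 16092 genes were called lower, against 2275 of 15427 with all libraries. Without control replicate 1 the count fell by a larger share among the 55 genes than over all tested genes. Without control replicate 3 it fell by a smaller share. The median log2 fold change of the 55 genes was -0.43 without control replicate 1 and -0.56 without control replicate 3.

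**Figure D1:**
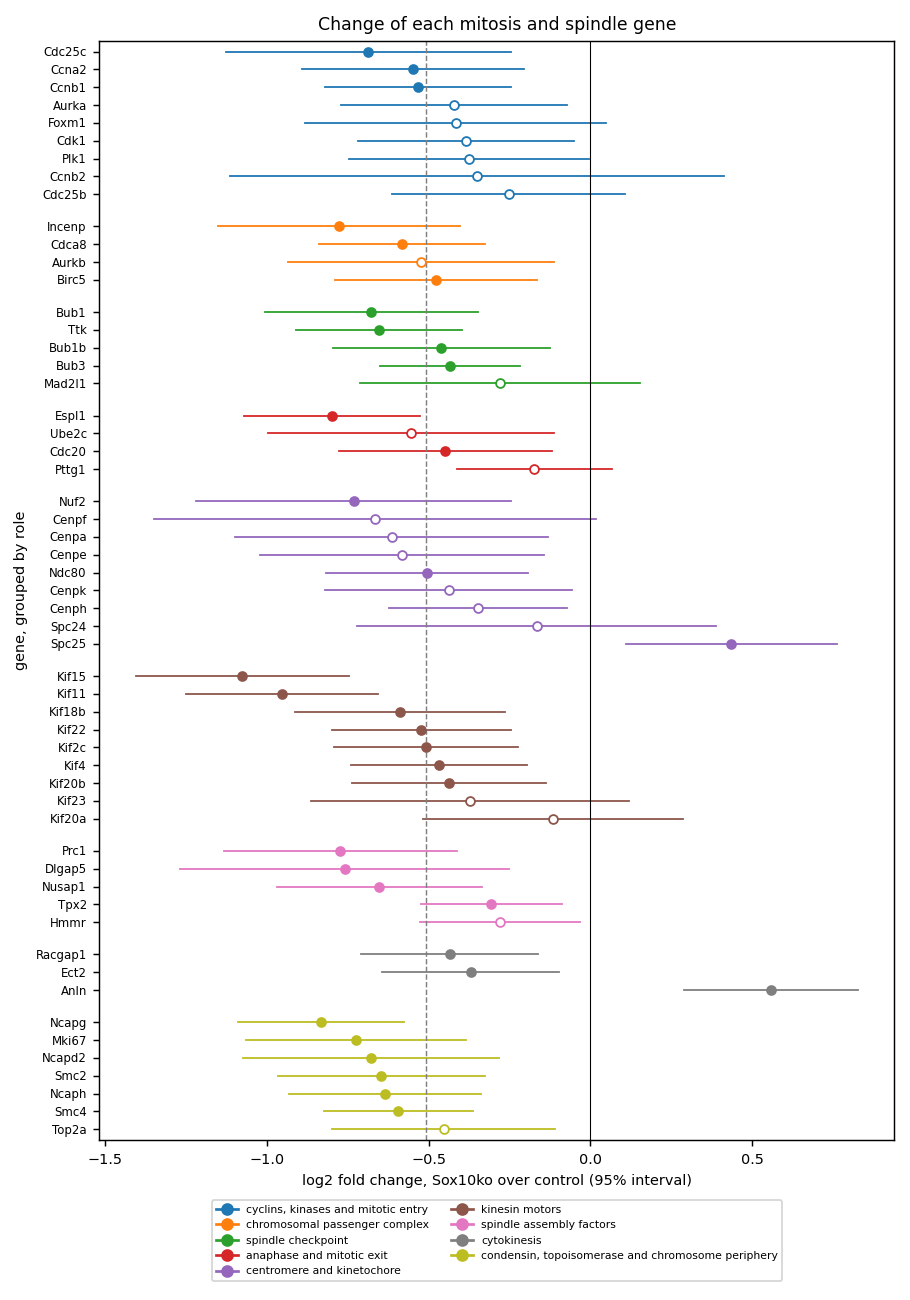
Log2 fold change of Sox10ko over control for each of the 55 genes, grouped by role, with 95% intervals from edgeR; filled symbols passed the adjusted p threshold of 0.05. Points cluster around the median of -0.51, and only Anln and Spc25 lie to the right of 0.

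The Sox10ko libraries differed from each other more than the controls did. For each library the log2 level of every gene was set against the mean of the controls, and the median over the 55 genes was 0.15, -0.07 and -0.06 in control replicates 1, 2 and 3, and -0.74, -0.34 and -0.47 in Sox10ko replicates 1, 2 and 3. Each Sox10ko library therefore had a median under that of every control library, with replicate 1 the lowest and replicate 2 the nearest to the controls. Sox10ko replicate 1 held the lowest Sox10ko value for 48 of the 55 genes, and replicate 2 held the highest for 37. In the same order of replicates, 52, 44 and 49 genes lay under all 3 controls. These counts per library were made for the 55 genes only, so the share over all tested genes is not known. The coefficient of variation over 3 libraries had a median of 9.55% in control and 14.4% in Sox10ko, and was larger in Sox10ko for 41 genes. The larger spread was not particular to the 55 genes. Over genes in general, chi-square per degree of freedom between 2 libraries was 24.7 to 53.7 in control and 70.1 to 80.9 in Sox10ko. The medians of the 42 DNA replication genes were -0.68, -0.47 and -0.40, again lowest in replicate 1, but nearest to the controls in replicate 3.

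**Figure D2:**
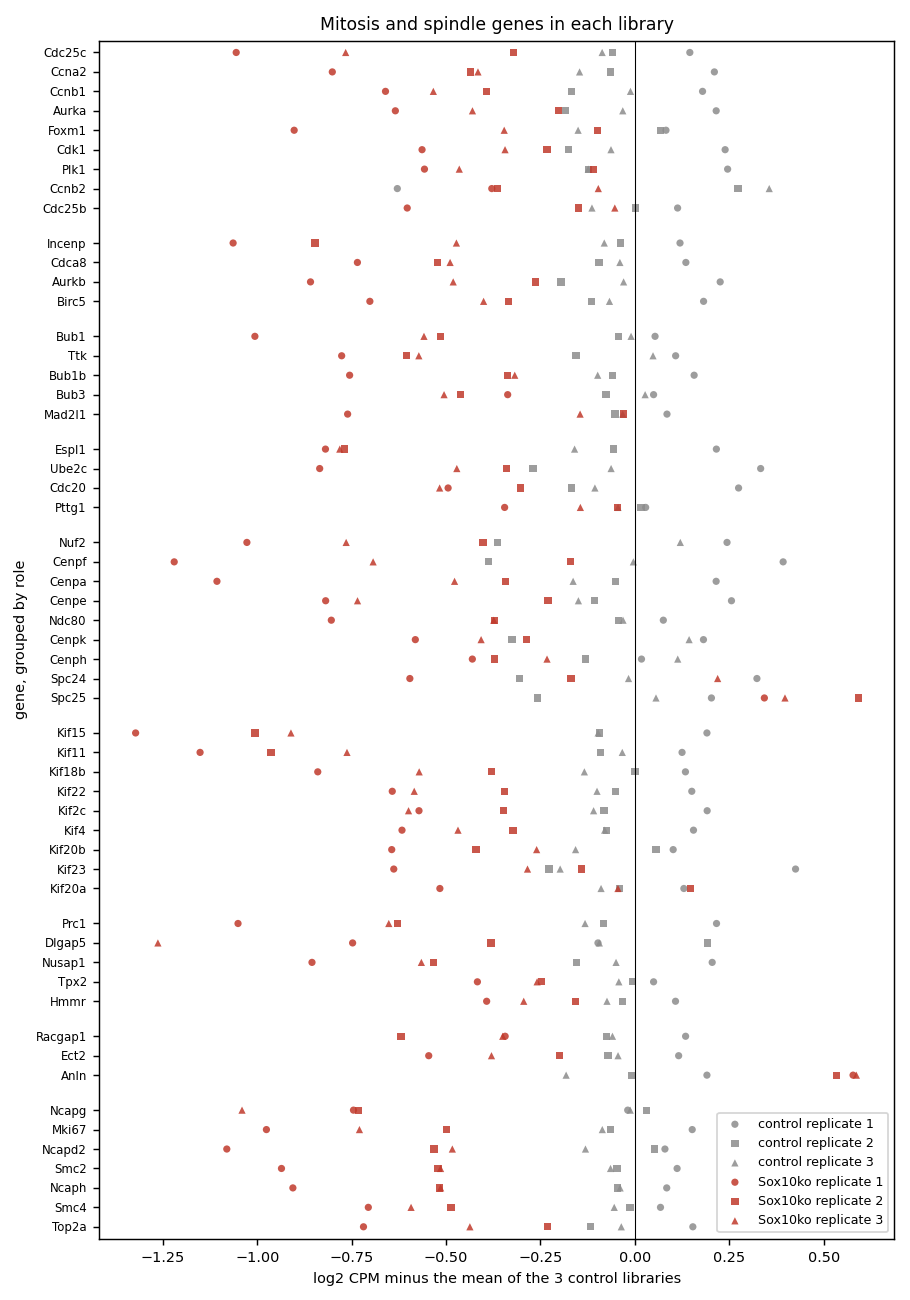
Log2 level of each of the 55 genes in each of the 6 libraries, relative to the mean of the 3 control libraries, with grey symbols for control and red for Sox10ko, 1 shape per replicate number. The median over the genes is -0.74 in Sox10ko replicate 1, -0.34 in replicate 2 and -0.47 in replicate 3, and lies between -0.07 and 0.15 in the controls.

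Levels are given as CPM, the read count scaled to a common library size with TMM. The depth was 32328618 to 41834431 reads assigned to genes per library, so that 1 read was worth 0.0235 to 0.0300 CPM. Sox10 itself was read at 606, 627 and 617 CPM in control and at 82.3, 67.5 and 116 CPM in Sox10ko, a 6.95-fold lower level (edgeR adjusted p 0.000186). Of the Schwann cell markers, Ngfr, Erbb3 and Cdh19 were abundant in control, while the myelin gene Mbp stayed under 6 CPM in all 6 libraries and Mag was at 0 or 1 read. The summed level of 15 Schwann cell markers was 4739 to 5326 CPM in control and 194 to 282 CPM in Sox10ko, with Ngfr alone at 2693 to 3237 CPM in control. Of the 14 markers tested, 10 were called lower and 1 higher: Pmp22, a peripheral myelin gene that other cells also express, stood at 38.9, 31.2 and 35.4 CPM in control and at 108, 67.8 and 102 CPM in Sox10ko. Prx, periaxin, was separate between the groups, from 6.54 to 8.87 CPM in control and 10.5 to 10.6 CPM in Sox10ko, and was not called. Summed levels of 9 fibroblast markers moved from 463 to 587 CPM in control to 1111 to 2316 CPM in Sox10ko, with Dcn, Lum and Thy1 under 0.3 CPM throughout. Those of 6 smooth muscle markers moved from 0.786 to 1.03 CPM to 118 to 670 CPM, mostly Acta2. Those of 7 epithelium markers moved from 0.195 to 0.256 CPM to 78.3 to 105 CPM, mostly Krt7, with Epcam at 0 or 1 read. Those of 6 leukocyte markers moved from 5.43 to 7.24 CPM to 9.60 to 13.4 CPM, and those of 4 endothelium markers from 2.13 to 2.31 CPM to 0.390 to 0.728 CPM. The part of these marker changes in the levels of the mitosis genes was not tested.

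Many of the promoters of these genes held the sequence elements named above. RefSeq windows on GRCm38.p6, from 250 bases before to 50 bases after the transcription start, were found for 45 of the 55 genes, 50 windows in all, since 4 genes had several; Ccna2, Cdc25c, Foxm1, Aurkb, Incenp, Spc24, Kif20a, Tpx2, Dlgap5 and Smc4 had no entry. The windows shown are those of the genes with the largest falls among genes holding both a CHR and a CCAAT box (Kif11, Ncapg and Espl1), the gene with a window whose fold change was nearest 0 (Pttg1), and the genes that rose (Spc25 and Anln, chosen after their values were seen). Capitals mark TTTGAA or TTCGAA (the CHR) and CCAAT, on either strand, so that TTCAAA and ATTGG are the same motifs read from the other strand. The Kif11 window is chr19:37376132-37376431 on the plus strand, and its CHR starts 19 bases before the transcription start.
Kif11: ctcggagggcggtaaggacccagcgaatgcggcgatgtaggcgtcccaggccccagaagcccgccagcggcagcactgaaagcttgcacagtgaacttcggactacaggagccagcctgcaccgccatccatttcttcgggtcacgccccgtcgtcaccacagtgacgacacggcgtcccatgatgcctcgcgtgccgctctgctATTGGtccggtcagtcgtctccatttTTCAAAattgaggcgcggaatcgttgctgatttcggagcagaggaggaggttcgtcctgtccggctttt
The Ncapg window is chr5:45669675-45669974 on the plus strand, with the CHR 30 bases before the start.
Ncapg: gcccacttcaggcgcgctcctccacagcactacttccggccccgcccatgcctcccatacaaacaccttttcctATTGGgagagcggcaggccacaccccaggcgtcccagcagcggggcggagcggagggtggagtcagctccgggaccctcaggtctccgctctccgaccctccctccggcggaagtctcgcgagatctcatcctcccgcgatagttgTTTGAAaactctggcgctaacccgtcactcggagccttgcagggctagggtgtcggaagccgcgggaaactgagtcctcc
The Espl1 window is chr15:102296043-102296342 on the plus strand, with the CHR 27 bases before the start.
Espl1: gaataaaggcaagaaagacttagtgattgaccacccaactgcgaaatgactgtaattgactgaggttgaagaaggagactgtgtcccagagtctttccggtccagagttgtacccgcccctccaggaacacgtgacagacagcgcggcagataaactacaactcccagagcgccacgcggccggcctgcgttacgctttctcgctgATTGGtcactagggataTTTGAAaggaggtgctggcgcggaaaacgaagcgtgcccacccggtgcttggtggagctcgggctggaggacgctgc
The Pttg1 window is chr11:43425932-43426231 on the minus strand and holds none of these letters.
Pttg1: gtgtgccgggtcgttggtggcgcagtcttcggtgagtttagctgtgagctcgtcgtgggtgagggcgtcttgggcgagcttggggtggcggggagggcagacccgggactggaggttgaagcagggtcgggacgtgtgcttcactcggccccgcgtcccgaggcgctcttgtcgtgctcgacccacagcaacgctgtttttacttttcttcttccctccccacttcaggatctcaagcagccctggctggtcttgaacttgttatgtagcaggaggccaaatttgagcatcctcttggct
The Spc25 window is chr2:69206164-69206463 on the minus strand, with both CCAAT boxes before the start and the CHR 25 bases after it.
Spc25: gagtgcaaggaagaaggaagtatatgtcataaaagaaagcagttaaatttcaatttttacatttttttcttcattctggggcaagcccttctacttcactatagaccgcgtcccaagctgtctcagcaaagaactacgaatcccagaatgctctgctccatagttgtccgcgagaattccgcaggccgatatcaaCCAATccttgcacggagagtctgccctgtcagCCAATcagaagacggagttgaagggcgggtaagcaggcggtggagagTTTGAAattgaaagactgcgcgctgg
The Anln window is chr9:22389157-22389456 on the minus strand, with a pair of CHR matches after the start, at positions 22 and 29, and no CCAAT.
Anln: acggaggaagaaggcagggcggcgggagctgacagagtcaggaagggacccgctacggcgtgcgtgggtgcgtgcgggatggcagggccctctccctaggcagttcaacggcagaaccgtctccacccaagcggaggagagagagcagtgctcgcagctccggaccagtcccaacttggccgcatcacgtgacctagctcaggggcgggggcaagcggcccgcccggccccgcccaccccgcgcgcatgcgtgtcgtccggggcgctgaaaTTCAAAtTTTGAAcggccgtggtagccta

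A gene was counted as holding a motif when any of its windows held it. A CHR match was found for 35 of the 45 genes, or 77.8%, against 16.3% of the other 10773 tested genes and 21.7% of all 27025 genes in the table. CCAAT was found for 34 genes, or 75.6%, against 43.1% and 41.1%, and 22 genes had 2 or more copies in a window. Both motifs were found for 30 genes, or 66.7%, against 8.09% and 9.65%. The letters TTTNNCGC, a form of the E2F site, were found for 8 genes, or 17.8%, against 9.49% and 5.93%. The letters ACAAAG or ACAATG, core forms of the motif that SOX proteins bind, were also found for 8 genes, or 17.8%, against 23.6% and 31.7%. Where windows of a gene overlapped, a site was counted once, at its position from the nearest start. CHR matches lay close to the start, with 34 of 48 (70.8%) within 50 bases and a median position of -10. Of the 76 CCAAT matches, 26 (34.2%) lay within 50 bases, and their median position was -66. Positions were taken for these 45 genes only, so they cannot be set against those in other genes. Genes with and without a CHR match had like fold changes. The 35 genes with a match had a median log2 fold change of -0.50, with 22 lower and 2 higher, and the 10 genes without had -0.50, with 5 lower. A match is a description of the letters only.

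**Figure D3:**
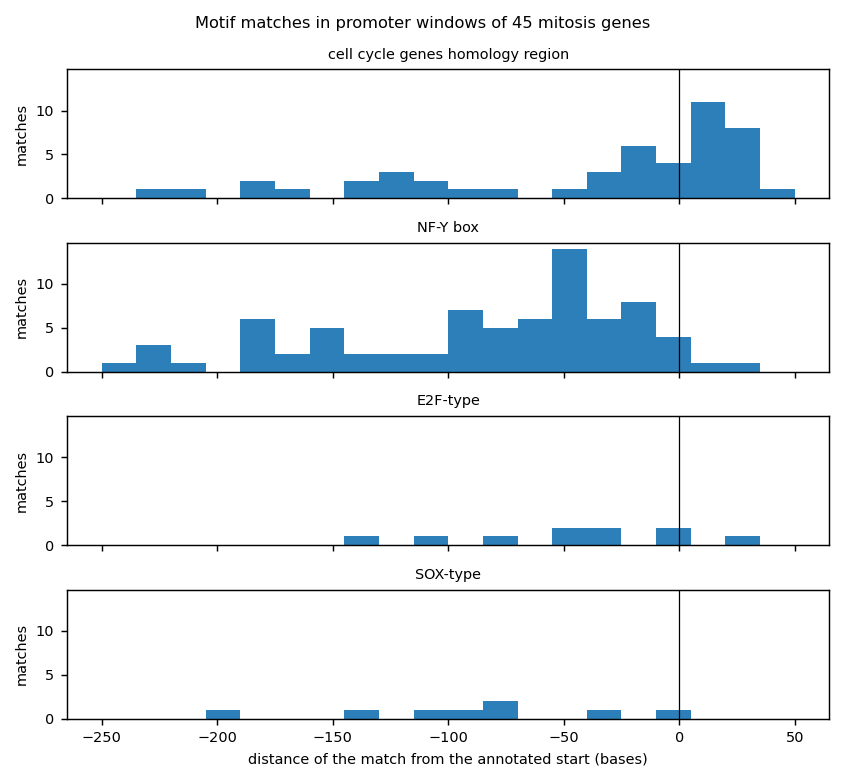
Positions of motif matches in the promoter windows of 45 genes, in bases from the transcription start (x axis), counted in bins (y axis), with 1 panel per motif; the NF-Y box is CCAAT. CHR matches gather around the start (median -10) and CCAAT matches upstream of it (median -66), while matches to the SOX letters are few (8).

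Among the cyclins, kinases and other genes of mitotic entry, 3 of 9 fell and the median log2 fold change was -0.42. For this and each role below, the background was 14.7% of all tested genes called lower. Cdk1, the kinase that drives entry into mitosis, stood at 334, 250 and 271 CPM in control and at 191, 241 and 223 CPM in Sox10ko. The groups did not overlap, but the log2 fold change of -0.38 (SE 0.14) missed the threshold in edgeR's test (adjusted p 0.0774, 95% interval -0.72 to -0.05). Ccnb1, the cyclin B1 partner of Cdk1, stood at 188, 148 and 164 CPM in control and at 105, 126 and 115 CPM in Sox10ko. It fell by 0.53 on the log2 scale (SE 0.12, edgeR adjusted p 0.0156), without overlap of the groups. Ccna2, cyclin A2, which acts with Cdk1 and Cdk2 from S phase into mitosis, fell by 0.55 (edgeR adjusted p 0.0267). Cdc25c, a phosphatase that removes the inhibitory phosphates of Cdk1, had 63.9, 55.5 and 54.4 CPM in control and 27.8, 46.2 and 34.0 CPM in Sox10ko. It gave the largest fall of this role, a log2 fold change of -0.69 (SE 0.19, edgeR adjusted p 0.0290). Its relative Cdc25b, at 82.7, 76.5 and 70.6 CPM in control and 50.3, 68.9 and 73.7 CPM in Sox10ko, was the member of this role nearest 0. Only Sox10ko replicate 1 lay well under the controls, and the log2 fold change of -0.25 was not called (95% interval -0.61 to 0.11). The calls in this role were not all stable to the loss of a library. Without control replicate 1 the edgeR adjusted p was 0.0768 for Ccna2 and 0.0868 for Cdc25c, and without control replicate 3 it was 0.0509 for Ccnb1. Ccna2 also lost its call without control replicate 2 (edgeR adjusted p 0.0522). Cdc25c also lost its call without each of control replicates 2 and 3 and Sox10ko replicates 1 and 3.

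The regulators Foxm1 and Plk1 showed the same spread. Foxm1, the transcription factor that activates late cell cycle genes, stood at 304, 301 and 259 CPM in control and at 154, 268 and 226 CPM in Sox10ko. Sox10ko replicate 2 exceeded the lowest control, and the log2 fold change of -0.42 was not called (edgeR adjusted p 0.152, 95% interval -0.88 to 0.05). Plk1, the polo-like kinase of centrosome maturation and mitotic progression, stood at 209, 162 and 161 CPM in control and at 120, 163 and 127 CPM in Sox10ko. Its groups overlapped at Sox10ko replicate 2 and its log2 fold change was -0.38 (edgeR adjusted p 0.113, 95% interval -0.75 to -0.0028). Aurka, the spindle pole kinase Aurora A, had a log2 fold change of -0.42 (edgeR adjusted p 0.0675) with separate groups. Ccnb2, cyclin B2, was hardly detected, with 0.949, 1.82 and 1.93 CPM in control and 1.14, 1.15 and 1.40 CPM in Sox10ko. Its 328 reads over all 6 libraries compare with at least 5567 for every other gene of the set, and its 95% interval of -1.12 to 0.41 covers both directions. The annotation lists a Ccnb2 pseudogene, which drew 26 reads.

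The chromosomal passenger complex, which corrects faulty attachments and later marks the cleavage plane, had 3 of 4 subunits that fell and a median log2 fold change of -0.55. Incenp, its scaffold, stood at 388, 348 and 338 CPM in control and at 171, 199 and 258 CPM in Sox10ko. It fell by 0.78 (SE 0.16, edgeR adjusted p 0.00998) with a wide gap between the groups. Birc5, survivin, stood at 156, 127 and 131 CPM in control and at 84.2, 109 and 104 CPM in Sox10ko, a fall of 1.39-fold (edgeR adjusted p 0.0311). Birc5 no longer passed when control replicate 1 was left out (edgeR adjusted p 0.0863), nor without control replicate 3 (0.0672) or Sox10ko replicate 1 (0.0583). Cdca8, borealin, which docks the complex to the centromere with Birc5, fell by 0.58 (edgeR adjusted p 0.00694). Aurkb, the kinase subunit, stood at 102, 75.8 and 84.99 CPM in control and at 47.8, 72.3 and 62.2 CPM in Sox10ko. The groups were separate by a narrow gap, and the log2 fold change of -0.52 missed the threshold (edgeR adjusted p 0.0578, 95% interval -0.94 to -0.11).

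Of the 5 spindle checkpoint genes, 4 fell, with a median log2 fold change of -0.46. Bub1, a kinase that recruits checkpoint proteins to unattached kinetochores, stood at 152, 142 and 145 CPM in control and at 72.8, 102 and 99.3 CPM in Sox10ko. It fell by 0.68 on the log2 scale (SE 0.14, edgeR adjusted p 0.0102) with no overlap. Ttk, the Mps1 kinase at the head of the checkpoint, fell by 0.65 (edgeR adjusted p 0.00434), and Bub1b, BubR1 of the mitotic checkpoint complex, by 0.46 (edgeR adjusted p 0.0452; up to 0.120 when a library was left out, with the call lost without any 1 control or Sox10ko replicate 1). Bub3, which binds phosphorylated Knl1 with Bub1, stood at 227, 208 and 223 CPM in control and at 174, 159 and 154 CPM in Sox10ko. It fell by 0.43 (SE 0.09, edgeR adjusted p 0.0113), and here Sox10ko replicate 1 was the highest of its group rather than the lowest. Without control replicate 3 the edgeR adjusted p of Bub3 was 0.0501. Mad2l1, Mad2, which inhibits Cdc20, stood at 166, 151 and 153 CPM in control and at 92.3, 153 and 142 CPM in Sox10ko. Replicate 1 alone lay far under the controls, and the log2 fold change of -0.28 was not called (95% interval -0.71 to 0.15).

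Of the 4 genes of anaphase and mitotic exit, 2 were called lower, and the median log2 fold change was -0.50. All 4 changes were negative. The groups were separate for all 4, against 23.8% of all tested genes with every Sox10ko value under every control value. Espl1, separase, the protease that cuts cohesin, stood at 168, 139 and 130 CPM in control and at 82.1, 85.01 and 84.3 CPM in Sox10ko. The Sox10ko libraries were close together and far under the controls, a fall of 1.74-fold (log2 SE 0.12, edgeR adjusted p 0.00240). Pttg1, securin, the inhibitor of separase, stood at 117, 116 and 111 CPM in control and at 90.2, 111 and 104 CPM in Sox10ko. Sox10ko replicate 2 came within a narrow gap of the lowest control, and the log2 fold change of -0.17 was not called (edgeR adjusted p 0.238, 95% interval -0.41 to 0.07). Cdc20, the activator of the anaphase-promoting complex, fell by 0.45 (edgeR adjusted p 0.0460), a call lost without control replicate 1 (0.0997), control replicate 3 (0.0749), Sox10ko replicate 1 (0.0973) or Sox10ko replicate 3 (0.0990). Ube2c, the ubiquitin-conjugating enzyme of that complex, had a log2 fold change of -0.56 (edgeR adjusted p 0.0598). For Ube2c, 22.8% of exon bases overlap Tnnc2 on the opposite strand, and the strand setting of the counting was not given in the sources used here.

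Centromere and kinetochore genes held the widest range of changes, with a median log2 fold change of -0.50. Of the 9 genes, 2 were called lower and 1 higher, against 14.7% and 17.3% of all tested genes. The Ndc80 complex, the 4-subunit rod that couples kinetochores to microtubules, did not move as a unit. Nuf2 stood at 194, 128 and 178 CPM in control and at 80.5, 124 and 96.6 CPM in Sox10ko, a fall of 0.73 on the log2 scale (SE 0.21, edgeR adjusted p 0.0330). Its partner Ndc80 fell by 0.50 (edgeR adjusted p 0.0258). The Nuf2 call was lost without control replicate 1 or 3 or Sox10ko replicate 1 or 3 (edgeR adjusted p up to 0.0996), and the Ndc80 call without any 1 control (up to 0.0736). Spc25, of the inner end of the rod, stood at 73.5, 53.3 and 66.3 CPM in control and at 81.0, 96.2 and 84.1 CPM in Sox10ko. All 3 Sox10ko values were above all 3 controls, and Spc25 rose 1.35-fold (log2 SE 0.14, edgeR adjusted p 0.0489). That call was lost in 9 of 14 alternative settings, among them the fits without control replicate 2 or 3 or without any 1 Sox10ko replicate, and over the 14 the adjusted p ran from 0.0261 to 0.132 (edgeR, DESeq2 and limma-voom). Spc24, which pairs with Spc25, had overlapping groups and a log2 fold change of -0.17 (95% interval -0.72 to 0.39). Spc25 (ENSMUSG00000005233) lies on chromosome 2 at 69193895 to 69206194, on the minus strand of GRCm38.

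The other kinetochore genes had negative changes that were not called. Cenpa, the centromeric histone H3 variant, had a log2 fold change of -0.61 (edgeR adjusted p 0.0586), and Cenpe, the kinesin that carries chromosomes to the spindle equator, one of -0.58 (edgeR adjusted p 0.0503). Both had separate groups. Cenpf, a large protein of the outer kinetochore, had a log2 fold change of -0.67 with a wide interval, -1.35 to 0.02. Cenph and Cenpk, of the constitutive centromere network, had log2 fold changes of -0.35 and -0.44 (edgeR adjusted p 0.0591 and 0.0783).

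Kinesin motors included the 2 largest falls of the set, with 7 of 9 lower and a median log2 fold change of -0.51. Kif15, which supports the bipolar spindle, stood at 158, 129 and 129 CPM in control and at 55.2, 68.7 and 73.4 CPM in Sox10ko. It fell 2.11-fold (log2 SE 0.14, edgeR adjusted p 0.00160) and the highest Sox10ko value was far under the lowest control. Kif11, Eg5, the motor that pushes spindle poles apart and with which Kif15 shares that work, stood at 464, 399 and 416 CPM in control and at 191, 218 and 251 CPM in Sox10ko. It fell 1.94-fold (log2 SE 0.13, edgeR adjusted p 0.00171), again with a wide gap. Kif15 (ENSMUSG00000036768) lies on chromosome 9 at 122951046 to 123018733 and Kif11 (ENSMUSG00000012443) on chromosome 19 at 37376403 to 37421859, both on the plus strand of GRCm38.

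The remaining motors changed less. Kif18b fell by 0.59 (edgeR adjusted p 0.0167) and Kif2c, MCAK, by 0.51 (edgeR adjusted p 0.0178); both act on microtubule ends. The chromokinesins Kif22 and Kif4, which bind chromosome arms, fell by 0.52 and 0.47 (edgeR adjusted p 0.0145 and 0.0200). Kif20b, which acts in cytokinesis, fell by 0.44 (edgeR adjusted p 0.0370). Without control replicate 1 the calls of Kif18b, Kif2c, Kif4 and Kif20b were lost, at edgeR adjusted p of 0.0545, 0.0503, 0.0605 and 0.102, and that of Kif20b also without control replicate 2 (0.0900), Sox10ko replicate 1 (0.0725) or Sox10ko replicate 2 (0.0686). Kif20a, a motor that brings the passenger complex to the central spindle, stood at 196, 174 and 169 CPM in control and at 125, 199 and 174 CPM in Sox10ko. Sox10ko replicate 2 was above every control, and the log2 fold change of -0.11 was the nearest to 0 of the set (95% interval -0.52 to 0.29). Of its exon bases, 29.3% overlap Cdc23 on the opposite strand. Kif23, the motor subunit of centralspindlin, had a log2 fold change of -0.37 (95% interval -0.86 to 0.12).

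Spindle assembly factors fell in 4 of 5 cases, with a median log2 fold change of -0.65. Prc1, which bundles the antiparallel microtubules of the central spindle, stood at 579, 470 and 455 CPM in control and at 241, 323 and 317 CPM in Sox10ko. It fell 1.71-fold (log2 SE 0.15, edgeR adjusted p 0.00879). Dlgap5, HURP, and Nusap1, both microtubule-stabilising proteins of the spindle, fell by 0.76 and 0.65 (edgeR adjusted p 0.0339 and 0.0101). Tpx2, the activator of Aurora A, gave the smallest called fall, 0.31 on the log2 scale (edgeR adjusted p 0.0414). Its call was lost without any 1 library other than Sox10ko replicate 2 (edgeR adjusted p up to 0.107), and that of Dlgap5 without any 1 control or Sox10ko replicate 1 (up to 0.0990). Hmmr, a spindle protein and hyaluronan receptor, stood at 636, 577 and 561 CPM in control and at 450, 530 and 482 CPM in Sox10ko. The groups did not overlap, and the log2 fold change of -0.28 was not called (edgeR adjusted p 0.0815, 95% interval -0.53 to -0.03).

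In cytokinesis, Racgap1 and Ect2 fell while Anln rose. Racgap1, the GTPase-activating subunit of centralspindlin, stood at 477, 413 and 417 CPM in control and at 342, 283 and 341 CPM in Sox10ko. It fell by 0.44 (SE 0.12, edgeR adjusted p 0.0272). Ect2, the exchange factor that activates RhoA at the cleavage plane, fell by 0.37 (edgeR adjusted p 0.0475). Racgap1 no longer passed when control replicate 1 was left out (edgeR adjusted p 0.0833), nor without control replicate 3 (0.0646) or Sox10ko replicate 2 (0.0539). Ect2 lost its call without any 1 library other than Sox10ko replicate 2 (up to 0.125). Anln, anillin, an actin-binding protein that links the contractile ring to the membrane, stood at 338, 294 and 261 CPM in control and at 441, 428 and 444 CPM in Sox10ko. The Sox10ko libraries lay close together above all controls, a rise of 1.47-fold (log2 SE 0.11, edgeR adjusted p 0.0101). Without control replicate 3 the adjusted p was 0.0515, the highest over 14 alternatives that reached down to 0.000168 (edgeR, DESeq2 and limma-voom). Anln (ENSMUSG00000036777) lies on chromosome 9 at 22332012 to 22389188, on the minus strand of GRCm38.

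Of the 7 genes of mitotic chromosome structure, 6 fell, with a median log2 fold change of -0.65. All 5 subunits of condensin I, the ring that compacts mitotic chromosomes, fell, with log2 fold changes from -0.83 to -0.59. Of these 5 calls, only that of Ncapd2 was lost when a library was left out, without control replicate 1 (edgeR adjusted p 0.0627) or 2 (0.0582). Ncapg stood at 211, 218 and 212 CPM in control and at 127, 128 and 104 CPM in Sox10ko, a fall of 1.78-fold (log2 SE 0.11, edgeR adjusted p 0.00161). Mki67, the Ki-67 protein that coats mitotic chromosomes and is the common marker of proliferation, stood at 1424, 1225 and 1207 CPM in control and at 652, 908 and 773 CPM in Sox10ko. All Sox10ko values were well under the controls, a fall of 1.65-fold (log2 SE 0.15, edgeR adjusted p 0.00902). Top2a, topoisomerase II alpha, which untangles sister chromatids, stood at 1109, 919 and 973 CPM in control and at 606, 849 and 737 CPM in Sox10ko. Its groups were separate, and the log2 fold change of -0.45 just missed the threshold (edgeR adjusted p 0.0518, 95% interval -0.80 to -0.11).

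The changes of the 55 genes lay within a narrow range. The log2 fold changes of the 55 genes had a standard deviation of 0.27 and an interquartile range of 0.27 (quartiles -0.65 and -0.38), against an interquartile range of 0.76 over all tested genes and 0.57 over those with a mean of at least 5 CPM. As close together were the DNA replication genes, with a standard deviation of 0.21 and an interquartile range of 0.28. To ask which genes departed from the shared change, the edgeR fit was repeated with each library shifted by the median deviation of the 55 genes in it, so that a gene moving like the median gene had a change of 0. In that fit 2 of the 55 genes lay below the median gene and 2 above it. Each count was a smaller share than that over all tested genes. The others of the 55 were not called, which does not show that they moved alike. Below the median gene lay Kif15, by -0.57 (SE 0.14, edgeR adjusted p 0.0115), and Kif11, by -0.44 (SE 0.15, edgeR adjusted p 0.0364), against 4.98% of all tested genes. Above it lay Anln, by 1.09 (SE 0.16, edgeR adjusted p 0.000965), and Spc25, by 0.95 (SE 0.15, edgeR adjusted p 0.00136), against 41.7% of all tested genes. Anln and Spc25 kept these calls in all 12 alternative settings run. Kif15 lost its call without control replicate 3 (edgeR adjusted p 0.0532). Kif11 lost its call without each library other than Sox10ko replicate 3, with an edgeR adjusted p up to 0.131.

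Set per length of union exon, the highest of the 55 genes were Mki67, Top2a and Hmmr. This length joins the exons of all annotated transcripts of a gene and can exceed that of the transcripts present. The order between genes therefore depends on the annotation. In FPKM, the CPM per kilobase of union exon, the level of Mki67 was 128 in control and 77.3 in Sox10ko. That of Top2a was 111 and 81.1, and that of Hmmr 109 and 89.7. Ccnb2 was the lowest, at 1.02 and 0.802 FPKM. The median level of the 55 genes was 33.6 FPKM in control and 23.3 in Sox10ko. Within the Ndc80 complex the order of mean levels, by these lengths, differed between the groups, and it was not tested. Control cells had Nuf2 at 26.3 FPKM (SD 5.5), Spc25 at 20.2 (SD 3.2), Ndc80 at 18.4 (SD 0.85) and Spc24 at 13.9 (SD 3.0). Sox10ko cells had Spc25 at 27.3 (SD 2.5), Nuf2 at 15.8 (SD 3.5), Ndc80 at 12.99 (SD 2.1) and Spc24 at 12.3 (SD 3.4).

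**Figure D4:**
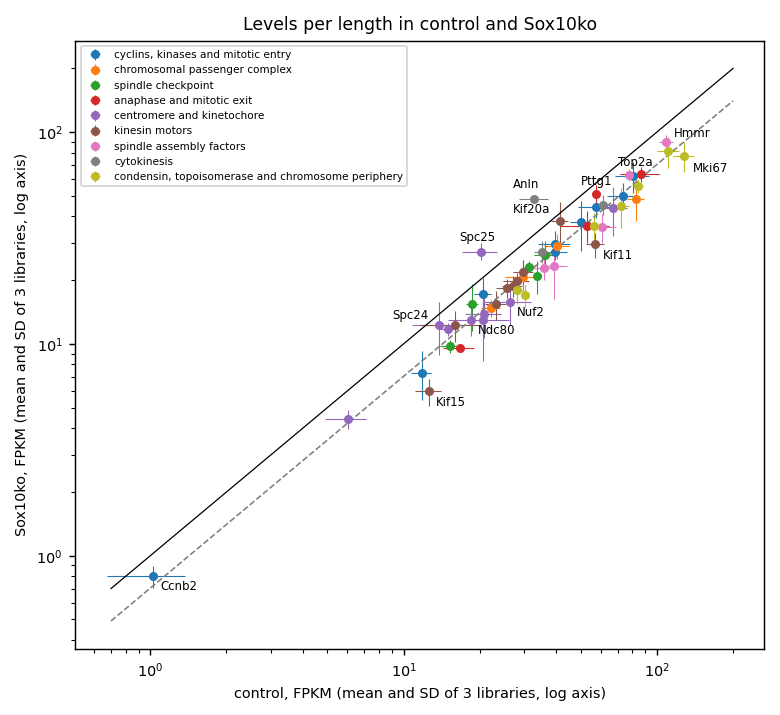
Mean level per length of each gene in control (x axis, FPKM, log scale) and Sox10ko (y axis, FPKM, log scale), with SD over 3 libraries, coloured by role. The solid line marks equal levels and the dashed line the median change; Anln and Spc25 are the genes well above the solid line.

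Genes of neighbouring steps of the cell cycle shifted in the same direction. Over all tested genes edgeR called 14.7% lower and 17.3% higher, the background for each list below. Among 82 further mitosis genes, 38 were called lower by edgeR, with a median log2 fold change of -0.43. None was called higher by edgeR or DESeq2, and 1 was higher at an unadjusted p under 0.05. Mis18a, which prepares centromeres for Cenpa, fell 2.51-fold (41.4, 37.2 and 45.1 CPM to 12.8, 18.03 and 18.4 CPM, edgeR adjusted p 0.00133). Cit, citron kinase of the midbody, fell 1.84-fold (edgeR adjusted p 0.00189), Trip13, which recycles Mad2, 1.87-fold (edgeR adjusted p 0.00234), and Ncapg2, a condensin II subunit, 1.61-fold (edgeR adjusted p 0.00197).

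DNA replication genes gave 25 lower of 42 and a median log2 fold change of -0.47. By edgeR, DESeq2 and at an unadjusted p under 0.05 alike, the count of higher genes was 0. Mcm7, part of the MCM helicase, fell 1.79-fold (edgeR adjusted p 0.00128), and the polymerase genes Pold1, Prim1 and Pola1 fell 1.76-fold, 1.65-fold and 1.70-fold.

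The regulators of these genes moved in both directions. Of 26 tested genes of the DREAM, MuvB, E2F and RB group, 14 were called lower and 2 higher, with a median log2 fold change of -0.34. Mybl2, B-Myb, stood at 55.5, 42.9 and 45.4 CPM in control and at 20.7, 27.0 and 27.6 CPM in Sox10ko, a fall of 1.91-fold (edgeR adjusted p 0.00439). E2f2, an activating E2F, and Lin9, of the MuvB core, fell 1.87-fold and 1.57-fold (edgeR adjusted p 0.00199 and 0.00748). Both genes that rose are known to restrain the cell cycle. Cdkn1a, the CDK inhibitor p21, stood at 123, 186 and 127 CPM in control and at 299, 314 and 292 CPM in Sox10ko, a rise of 2.08-fold (edgeR adjusted p 0.00368), and Rbl2, the p130 protein of DREAM, rose 1.52-fold (edgeR adjusted p 0.0229).

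Among 10 tested G1 cyclins, kinases and inhibitors, 4 were called lower and 1 higher, with a median log2 fold change of -0.28. Ccnd2, cyclin D2, which drives G1 progression, stood at 121, 215 and 137 CPM in control and at 582, 758 and 719 CPM in Sox10ko, a rise of 4.36-fold (edgeR adjusted p 0.000770). Cdk2 fell 1.56-fold and its cyclin Ccne2 1.496-fold (edgeR adjusted p 0.00284 and 0.00348). Cdkn2c, the CDK inhibitor p18, fell 1.64-fold (edgeR adjusted p 0.0132). The rise of Ccnd2 was opposite in sign to the other calls of its group.

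**Figure D5:**
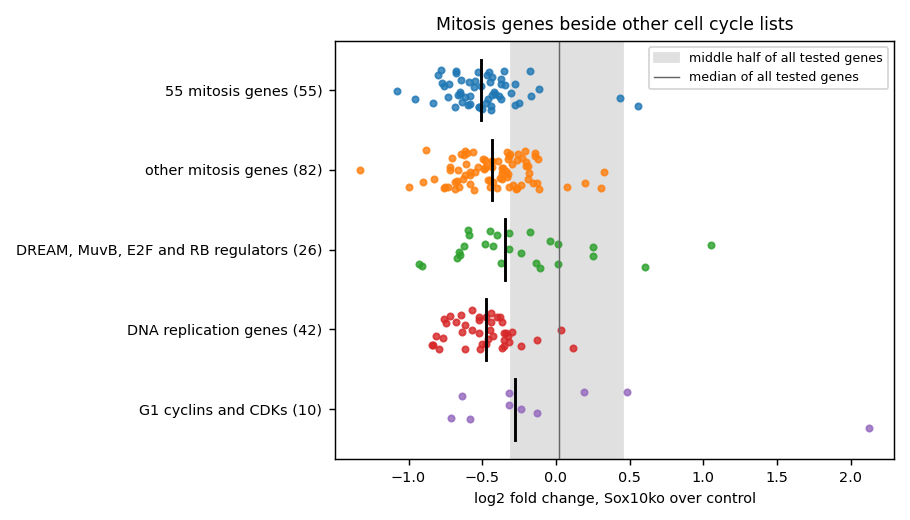
Log2 fold change of Sox10ko over control for the genes of each list, with the median of each list marked. The medians of the mitosis set (-0.51), the further mitosis genes (-0.43), the DNA replication genes (-0.47), the regulators (-0.34) and the G1 genes (-0.28) all lie under the median of all tested genes (0.02).

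The 55 genes lie on 17 chromosomes, and the direction was shared across them. The median log2 fold change of the mitosis genes of a chromosome ran from -0.78 on chromosome 19, with 3 genes, to -0.36 on chromosome 9, with 6 genes. The median over all tested genes of a chromosome ran from -0.24 on chromosome 14 to 0.15 on chromosome 17. With the median of each chromosome removed from each library, 38 of the 55 genes were called lower and 1 higher. Of all 15427 tested genes, that fit called 2633 lower and 2847 higher.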

How the data were processed

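Total RNA of 3 control and 3 Sox10ko cultures was sequenced as stranded mRNA libraries, per the labels' protocols. The deposited values are raw read counts per Ensembl gene ID, 1 table per library. The submitters' processing notes name STAR 2.6.0c, HTSeq, DESeq2 and the mm10 (GRCm38) build; no annotation release, strand setting or read filter is named there. Symbols were matched for 54042 of 54109 IDs. Counts were filtered with filterByExpr, scaled by TMM and fitted with edgeR 4.0.16 (R 4.3.3, limma 3.58.1), with group as the only term; the quasi-likelihood test was adjusted by Benjamini-Hochberg over 15427 genes at a threshold of 0.05. Intervals are 95% intervals, and CPM values use TMM-scaled libraries. Alternatives were other scalings and filters, DESeq2 1.42.0, limma-voom, a replicate block, removal of chromosome medians and leaving out each library. The fits were tested on simulated data. FPKM used union exon lengths. Promoter windows came from RefSeq (GRCm38.p6).

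The 55 genes, the other lists and the tests were chosen with earlier results of these data known. Library values are given, for each role, for the genes with the most negative and the most positive change and for Cdk1, Ccnb1, Plk1, Aurkb, Bub3, Foxm1, Mki67 and Top2a; Kif11 and Ccnb2 were added after their values were seen. From each other list the text names the 4 genes of smallest adjusted p and at most 2 called against the majority. Single values of some marker genes are not reported here.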

Additional observations from a re-analysis of the deposited data

How the results depend on the processing

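The median log2 fold change of the 55 genes stayed between -0.55 and -0.45 under other scalings, filters and tests, and between -0.61 and -0.43 when each library was left out in turn. The count of genes called lower, 33 in the edgeR fit, was 28 to 43 under other scalings, filters, tests and removal of chromosome medians. Of all 15427 tested genes, 2275 were called lower in the edgeR fit. That all-gene count was 1903 with library size alone (28 of the 55) and 2756 with DESeq2 (43 of the 55). When libraries were left out, the count among the 55 was 17 (without control replicate 1) to 39 (without Sox10ko replicate 2). The all-gene counts beside these were 1606 of 16174 and 2051 of 15816. The count called higher, 2, was 1 with DESeq2 size factors, 1 with no low-count filter and 1 with chromosome medians removed, and 0 to 2 when libraries were left out; the 0 was without control replicate 3, where edgeR gave 2 genes at an unadjusted p under 0.05. Genes below the median gene numbered 1 with no low-count filter, 1 with chromosome medians removed (Kif15 in both) and 0 to 2 when libraries were left out, and genes above it 2 to 3. Of the 33 genes that fell, 15 kept the call under all 14 alternatives: Bub1, Cdca8, Espl1, Incenp, Kif11, Kif15, Kif22, Mki67, Ncapg, Ncaph, Nusap1, Prc1, Smc2, Smc4 and Ttk. The others lost it at least once, 16 of them without control replicate 1. Kept and lost calls were counted for the 55 genes only, so the share over all tested genes is not known. The log2 fold changes of Spc24 and Kif20a ran from -0.40 to 0.009 and from -0.27 to 0.046 when libraries were left out, above 0 only without Sox10ko replicate 1; the cause was not tested. In the last 150 bases of the promoter windows, ACAAAG or ACAATG matched 5 genes in place of 8.

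With the replicate number as a block in the edgeR fit, 21 genes were called lower and 1 higher, and 0 lay below the median gene, with 1 at an unadjusted p under 0.05. Of all 15427 tested genes, that fit called 1582 lower and 1955 higher. The block gave Kif15 and Kif11 an edgeR adjusted p of 0.0779 and 0.150 against the median gene. The numbers were not taken as pairs: deviations of same-numbered libraries correlated at -0.21, -0.10 and 0.07.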
